A study of Mus musculus with 6 samples.

Results

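The cytosolic ribosomal protein genes were followed in 6 clones of mpkCCD, an established line of mouse kidney cells from the cortical collecting duct, where water uptake is under the control of vasopressin. Members were chosen by symbol alone, as Rpl or Rps followed by a number with at most a short suffix, together with Rplp0, Rplp1, Rplp2 and Rpsa. This gave 77 of the 20896 genes in the table, 48 of the large and 29 of the small ribosomal subunit. The groups were 3 clones labelled PKA dKO, a knockout of protein kinase A, and 3 control clones, with 1 library per clone and every clone a separate line. Which genes were edited, and how the control clones were made, is not stated in the labels. All clones of both groups grew for 4 days on permeable supports in 2% serum with insulin, dexamethasone, triiodothyronine, epidermal growth factor, selenite and transferrin. Both groups then spent 3 days in 0.1 nM dDAVP, a V2-selective analog of vasopressin, in medium free of serum and hormones. No library without dDAVP was analysed here. The series title gives the aim as finding the signalling network that depends on PKA, and the comparison below asks how the ribosomal protein mRNAs differ between the groups under dDAVP.

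The cytosolic ribosome has a large subunit, which joins amino acids, and a small subunit, which reads the mRNA, and its proteins are needed in equal copies apart from the stalk proteins. Ribosomal protein mRNAs are abundant in all cells and mostly start with a run of pyrimidines, the TOP motif, through which the kinase complex mTORC1 and the RNA-binding protein Larp1 control their translation. Many of their introns also carry small nucleolar RNAs that guide the modification of ribosomal RNA. In collecting duct cells, vasopressin raises cyclic AMP through its V2 receptor, and cyclic AMP in turn switches on PKA.

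The libraries held 38760162, 30541578 and 37854925 recovered reads in dKO clones 1, 2 and 3, and 39780099, 28596444 and 42515838 in control clones 1, 2 and 3. The libraries of dKO clone 3 and control clone 1 stood apart, with 2363 and 2443 transcripts without a read against 863 to 1045 in the other libraries, so results are also given for the other 4 libraries. Prkaca, the PKA catalytic subunit alpha gene, averaged 7.52 ± 0.923 CPM in dKO clones and 99.8 ± 29.6 CPM in control clones (CPM, reads scaled to a common library size with TMM factors; SD, n = 3 each), while Prkacb, the beta subunit gene, averaged 103 ± 3.43 CPM in dKO clones and 121 ± 14.7 CPM in control clones. Aqp2, the vasopressin-regulated water channel of principal cells, averaged 2.64 ± 0.784 CPM in dKO clones and 232 ± 145 CPM in control clones. The 5 epithelial markers summed to 4197 to 4672 CPM in dKO clones and 4570 to 5225 CPM in control clones. The 11 principal cell markers summed to 1230.3 to 1341 CPM in dKO clones and 1140.0 to 1738 CPM in control clones, with Aqp2 the 1 gene called. These sums mix opposite directions. At unadjusted p under 0.05 by limma, 3 were lower in dKO clones, Aqp2, Aqp4 and Avpr2, and 1 higher, Tfcp2l1 (6.24% of all genes in either direction, 3.84% lower). In dKO and control clones, Aqp4 averaged 0.340 and 6.65 CPM, Avpr2 46.8 and 58.6 CPM, and Tfcp2l1 751 and 528 CPM. The intercalated cell markers summed to 18.0 to 44.3 CPM in dKO clones and 24.2 to 43.9 CPM in control clones. Nearly all of this was Atp6v1b1, with 16.4 to 40.4 CPM in dKO clones and 20.4 to 43.4 CPM in control clones. Slc4a1, Foxi1, Slc26a4 and Atp6v0d2 each averaged at most 1.77 CPM in either group. The summed markers of proximal tubule, thick limb and distal tubule, podocytes, endothelium, leukocytes and fibroblasts each stayed between 0.332 and 10.1 CPM in all 6 libraries. In such bulk libraries, fewer cells of a type and less RNA per cell cannot be told apart.

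The ribosomal protein genes took 3.09%, 2.93% and 2.78% of the reads in dKO clones 1, 2 and 3, and 2.77%, 3.24% and 3.59% in control clones 1, 2 and 3. Control clones 2 and 3 were the highest, control clone 1 was the lowest, and the groups overlapped. The mean share was 2.93% ± 0.158 in dKO clones and 3.20% ± 0.411 in control clones (SD, n = 3 each), a difference of -0.26 percentage points that was smaller than the SD of the control clones. Without control clone 3 the difference was -0.07 points, and in the 4 libraries other than dKO clone 3 and control clone 1 it was -0.40 points.

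Both subunits had nearly the same proportion in every clone. Large subunit genes took 1.91%, 1.79% and 1.73% of the reads in dKO clones, against 1.73%, 1.98% and 2.19% in control clones. Small subunit genes took 1.19%, 1.14% and 1.05% in dKO clones, against 1.04%, 1.26% and 1.40% in control clones. The ratio of large to small subunit reads was 1.60, 1.57 and 1.64 in dKO clones and 1.67, 1.56 and 1.57 in control clones, with means of 1.61 ± 0.0348 and 1.60 ± 0.0590. The libraries that stood apart, dKO clone 3 and control clone 1, had the highest ratio of their groups.

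**Figure D1:**
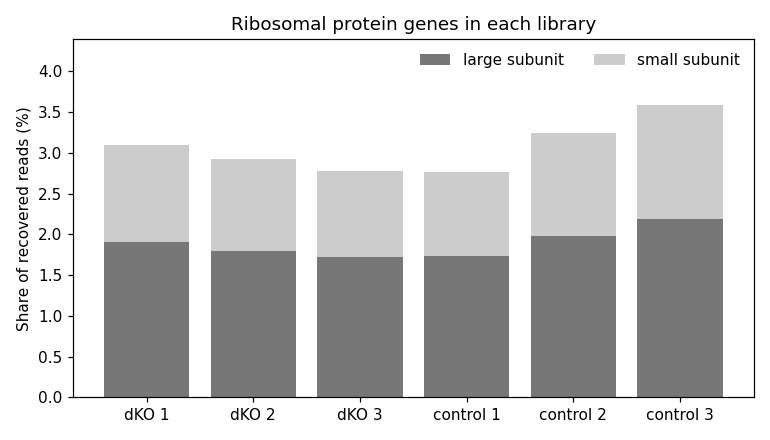
Share of recovered reads (%, vertical axis) on large (dark) and small (light) subunit genes in each of the 6 libraries. The total lay between 2.78% and 3.09% in dKO clones and between 2.77% and 3.59% in control clones, and the groups overlap.

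Per length, the genes differed widely among themselves and, as shares within each library, mostly little between clones. Such shares leave out any shift common to all members. Rps12 varied more, from 2.86% in control clone 1 to 4.29% in control clone 2. As the share of the FPKM summed over all 77 genes, averaged over the 6 libraries, the highest were Rps15 at 4.41%, Rplp1 at 4.31% and Rpl8 at 3.77%. Rps15 encodes a small subunit protein near the decoding site, Rplp1 a protein of the stalk that recruits translation factors, and Rpl8 a large subunit protein close to the centre where peptide bonds form. The median gene held 1.28%, with a middle range of 0.878% to 1.62%. The lowest tested genes were Rpl3l at 0.001%, Rpl7l1 at 0.119% and Rps15a at 0.127%. The value of Rps15a rests on a listed transcript length of 5121 bases, the longest of all members, and that of Rpl7l1 on 2591 bases. For 5 members, Rps27l, Rps9, Rpl34, Rpl31 and Rpl21, the listed length was 1.14 to 1.99 times the length that their FPKM imply, so their level per length is less sure. The deposited FPKM of all members summed to 7.01%, 6.50% and 6.25% of all FPKM in dKO clones 1, 2 and 3, and to 6.20%, 6.84% and 7.34% in control clones 1, 2 and 3.

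**Figure D2:**
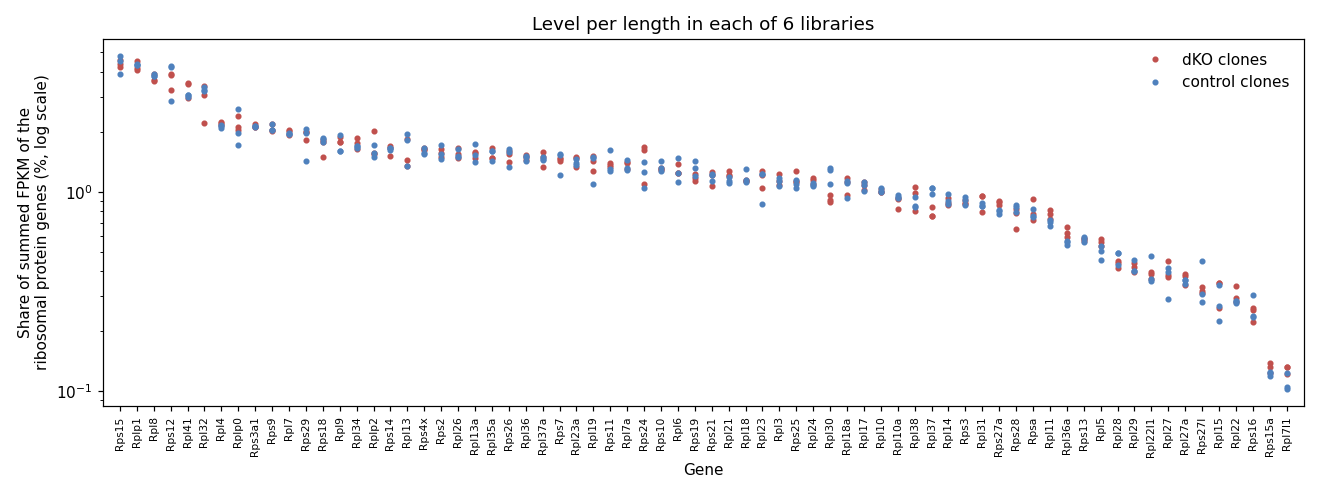
Level per length of 70 ribosomal protein genes, as the share of the summed FPKM of all members (%, log axis), with 1 point per library (red for dKO, blue for control) and genes ordered by mean. Shares within a library leave out any shift common to all members. The points of a gene lie close together next to the range between genes, from 0.119% for Rpl7l1 to 4.41% for Rps15; Rpl3l, at 0.001%, the 3 genes that were not tested and 3 other genes are not drawn.

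Of the 77 genes, 74 had enough reads to be tested, 46 of the large and 28 of the small subunit. The others, Rps4l, Rpl39l and Rpl10l, had at most 12 reads in any library. None of the 74 passed an adjusted p of 0.05 in either direction by limma, against 28 of 16683 genes overall (0.168% in either direction, 0.114% lower). The edgeR quasi-likelihood test and limma-voom also called none, each with 0.114% of all genes called lower. DESeq2 called Rpl30 and Rpl37, both lower in dKO clones (1.22% of all genes were called lower by DESeq2), and so did limma within the 4 libraries (background 1.61%). In the authors' deposited table, which lists 73 of the genes, the same 2 genes passed a false discovery rate of 0.05, with log2 fold changes of -0.56 for Rpl37 and -0.59 for Rpl30, against 3.47% of all its genes in either direction and 2.49% lower. Without adjustment, limma put 2 members lower and 0 higher at p under 0.05, against 6.24% of all genes in either direction and 3.84% lower. At the same unadjusted threshold, the edgeR quasi-likelihood test put 2 members lower (background 3.93%), limma-voom 2 (3.87%) and DESeq2 4 (4.32%), with 0 higher in each. Within the 4 libraries limma put 13 lower (background 5.62%) and 2 higher, and the share of all genes higher there is not reported here. For every member except Rpl3l, 73 genes in all, the 95% interval of the log2 fold change excluded both -1 and 1, with standard errors of 0.119 to 0.205, so changes as large as those bounds lie outside the intervals.

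Most members leaned slightly lower in dKO clones. The log2 fold change, dKO over control, was negative for 66 of 74 genes (background 50.2% of all genes tested, or 44.7% of those averaging at least 20 CPM, where all but 1 of the tested members lie). The median was -0.13, against -0.001 over all genes tested and 0.02 over those with at least 20 CPM. Most members lie far above that floor, so the genes with at least 20 CPM are not matched to them in level. With DESeq2 size factors, upper quartile scaling, library totals or TMM factors from the other genes, the median ran from -0.137 to -0.12. All 3 dKO clones were below all 3 control clones for 16 genes (21.6% of those tested; background 5.67% of all genes, 10.8% in either direction, and 7.17% of those with at least 20 CPM), and no member had all dKO clones above all control clones. Leaving out dKO clone 1, 2 or 3 gave counts of 19, 16 and 25 (background 8.06%, 8.1% and 12.1%), and leaving out control clone 1, 2 or 3 gave 31, 29 and 16 (background 13.7%, 8.97% and 8.87%). These 16, of which 7 belong to the large and 9 to the small subunit, included Rpl30, Rpl37, Rpl32, Rpl28, Rpl10a, Rpl18 and Rpl14 and also Rps19, Rps28, Rps18, Rps10, Rps9 and Rps3a1. Of the 16, 14 did not reach an unadjusted p of 0.05 by limma. The median was -0.10 for large subunit genes, of which 40 of 46 were negative, and -0.14 for small subunit genes, of which 26 of 28 were negative.

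The size of this lean depended on 1 control clone. In control clone 3 the median member lay 0.21 log2 units above its own 6-library mean, with a middle range of 0.15 to 0.26, and 60 of 73 genes had their highest value there while 0 had their lowest. Median deviations in dKO clones 1, 2 and 3 were -0.04, -0.09 and -0.02, and in control clones 1 and 2 they were 0.01 and -0.02. The lowest value of 38 of 73 genes was in dKO clone 2. Of the related lists described below, 2 also had their highest median deviation in control clone 3, at 0.12 for other TOP genes and 0.12 for ribosome assembly genes. Without control clone 3, 52 of 74 members were negative and the median was -0.05, against 49.5% of all genes negative in the same fit. Within the 4 libraries the median was -0.15, while in the pair of libraries that stood apart, dKO clone 3 minus control clone 1, it was -0.04 and 41 of 74 genes were negative. Control clone 3 was the deepest library, and the part of depth in its high values was not tested.

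**Figure D3:**
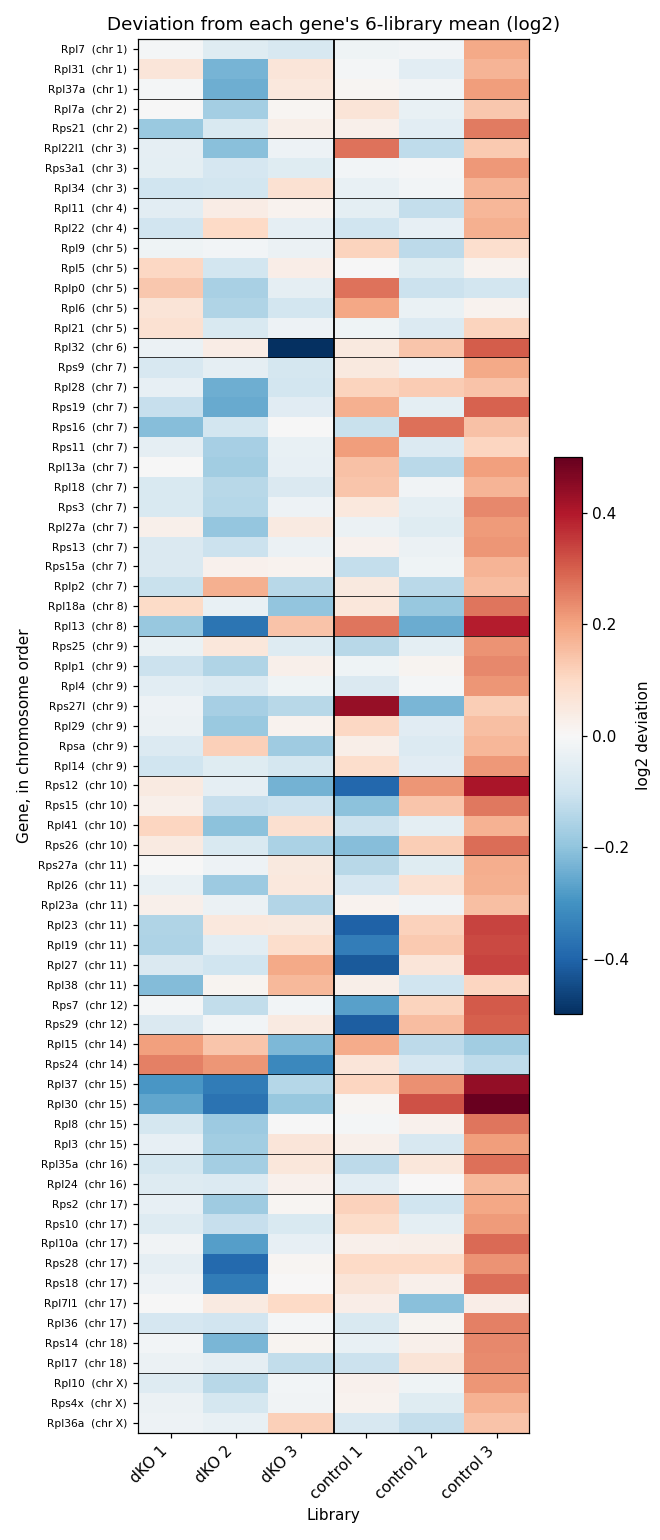
Deviation of 70 ribosomal protein genes (rows, in chromosome order) from their own 6-library mean, on a log2 scale from -0.5 to 0.5 (values beyond are drawn at the end of the scale), with dKO clones left of the line and control clones right of it. Control clone 3 is red for nearly all genes, while single blocks such as Rpl23, Rpl19 and Rpl27 on chromosome 11 in control clone 1 or Rpl15 and Rps24 on chromosome 14 in dKO clone 3 are blue.

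The genes lie on 18 chromosomes, 14 of them on chromosome 7, 8 on chromosome 17 and 7 each on chromosomes 9 and 11, with none on chromosomes 13, 19 or Y. On chromosome 7 all 14 had a negative fold change, against 66 of 74 tested members in all. Their median was -0.15, against -0.008 over all 1202 genes tested there. The member medians were -0.20 on chromosome 17 (7 of 8 negative), -0.13 on chromosome 9 (7 of 7) and -0.03 on chromosome 11 (5 of 7). Over all genes tested on chromosomes 17, 9 and 11 the medians were -0.03, 0.004 and 0.02. The 2 genes with the lowest p both lie in the proximal part of chromosome 15. Rpl37, at chr15:5116613-5119140 on the plus strand of GRCm38, had 255, 244 and 282 CPM in dKO clones 1, 2 and 3, and 335, 365 and 422 CPM in control clones 1, 2 and 3. The groups did not overlap. Its log2 fold change was -0.52 (SE 0.137, 95% interval -0.82 to -0.22), or 1.43-fold lower (interval 1.16 to 1.77), with an unadjusted p of 0.00301 and an adjusted p of 0.275 by limma. Rpl30, at chr15:34440510-34443222 on the minus strand, encodes another large subunit protein. It had 202, 187 and 212 CPM in dKO clones and 244, 302 and 341 CPM in control clones, again without overlap. Its log2 fold change was -0.55 (SE 0.147, 95% interval -0.87 to -0.22), or 1.46-fold lower, with an adjusted p of 0.296 by limma. Within the 4 libraries the log2 fold changes were -0.64 for Rpl37 and -0.70 for Rpl30, with limma adjusted p-values of 0.00383 and 0.00139.

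The other genes around them were lower too. Neighbours were counted as tested genes other than members that averaged at least 1 CPM. Of the 37 such genes within 10 Mb of Rpl37, 94.6% had a negative fold change and the median was -0.33. Of the 53 within 10 Mb of Rpl30, 94.3% were negative and the median was -0.36. With the neighbourhood median removed in each library, the log2 fold change of Rpl37 was -0.17 (limma adjusted p 0.769) and that of Rpl30 was -0.21 (limma adjusted p 0.735). Farther along chromosome 15, Rpl8 had 1219, 1141 and 1292 CPM in dKO clones and 1285, 1314 and 1559 CPM in control clones, where 1 dKO clone lay above the lowest control clone. Its log2 fold change was -0.18 (SE 0.170), with a median of -0.05 for its 216 neighbours. Rpl3, one of the first proteins to join the large subunit, had 569, 519 and 609.9 CPM in dKO clones and 596, 554 and 677 CPM in control clones, and its groups overlapped with a log2 fold change of -0.10 (SE 0.147) and a neighbour median of -0.06.

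**Figure D4:**
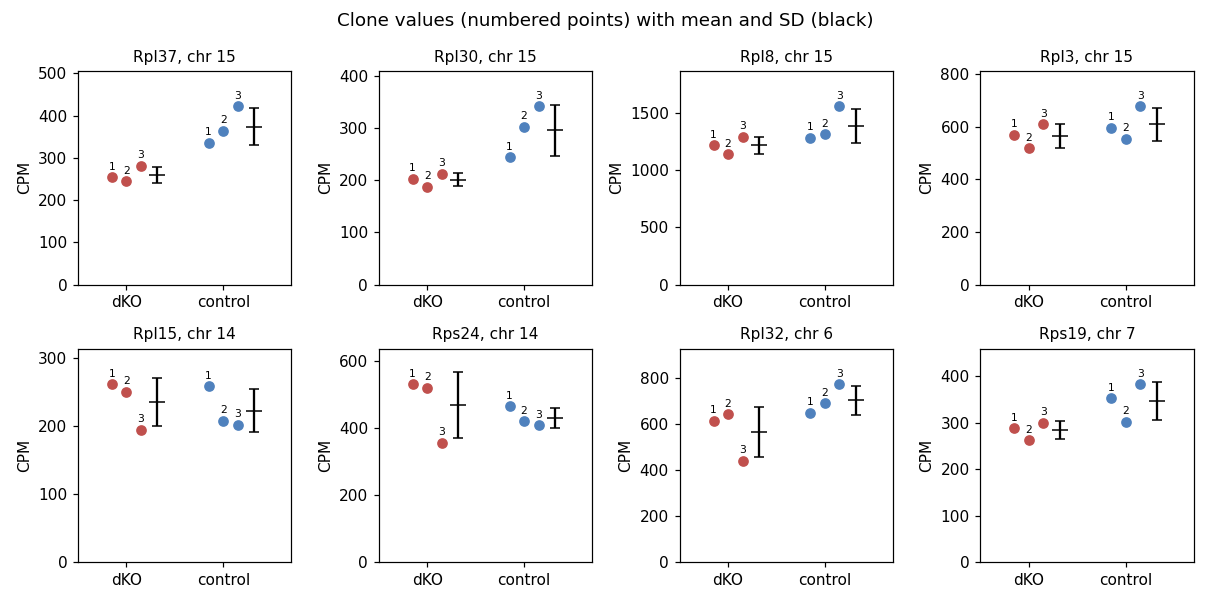
CPM (vertical axis, from 0) of 8 ribosomal protein genes in dKO clones (red, left) and control clones (blue, right), with clone numbers on the points and mean ± SD in black (n = 3). The dKO clones lie below all control clones for Rpl37, Rpl30, Rpl32 and Rps19 and overlap them for the other genes.

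On chromosome 14 the members ran the other way in the 4 libraries. Rps24, a small subunit gene mutated in Diamond-Blackfan anaemia in humans, had 530.1, 519 and 356 CPM in dKO clones and 464, 420.0 and 407 CPM in control clones. Clones 1 and 2 of the dKO group were above all control clones and dKO clone 3 was below them. Its log2 fold change was 0.10 (SE 0.172) over all 6 libraries, 0.36 in the 4 libraries and -0.39 for dKO clone 3 minus control clone 1. Rpl15, of the large subunit, had 262, 249.97 and 195 CPM in dKO clones and 259, 208 and 202 CPM in control clones, with a log2 fold change of 0.08 over 6 libraries, 0.34 in the 4 libraries and -0.41 in the remaining pair. Their neighbours within 10 Mb had median log2 fold changes of 0.21 around Rps24 and 0.18 around Rpl15. With the neighbourhood median removed, the values were -0.08 for Rps24 and -0.10 for Rpl15, so the sign turned. With the median of the whole chromosome removed instead, they were 0.31 for Rps24 and 0.29 for Rpl15. That median ran over all genes tested on chromosome 14, without the floor of 1 CPM, so its gene set is unlike that of the neighbours. As a fold change it was -0.24. Rps24 and Rpl15 were then the 2 members higher at unadjusted p under 0.05 by limma (2.94% of all genes, adjusted p 0.624 and 0.646).

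Rpl32, a large subunit gene and the tested member on chromosome 6, had 614, 643 and 441 CPM in dKO clones and 649, 690.1 and 774 CPM in control clones. The groups did not overlap, and dKO clone 3 was the lowest, at 0.51 log2 units below the gene's mean where its neighbourhood was at -0.30. Its log2 fold change was -0.33 (SE 0.174, adjusted p 0.918 by limma), and -0.20 in the 4 libraries.

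The remaining members singled out for their low fold change or p lie on chromosomes 7 and 17. Rps19, the gene most often mutated in Diamond-Blackfan anaemia in humans, had 288, 263 and 300.3 CPM in dKO clones and 353, 303 and 383 CPM in control clones. No dKO clone reached the lowest control clone, and the log2 fold change was -0.28 (SE 0.137, adjusted p 0.857 by limma). Rps28, another small subunit gene, had 115, 91.0 and 119.7 CPM in dKO clones and 128, 127 and 139 CPM in control clones (log2 fold change -0.28, SE 0.136). Rpl28 had 195, 169 and 188 CPM in dKO clones and 216, 219 and 221 CPM in control clones (log2 fold change -0.25, SE 0.119, unadjusted p 0.060 by limma). The median neighbour fold changes of these genes were -0.02, -0.02 and 0.006.

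Members that deviated most in a library often had neighbours that deviated the same way. Across 73 members, the deviation of a gene from its own mean and the median deviation of the other genes within 10 Mb had Pearson r of 0.82, 0.50 and 0.72 in dKO clones 1, 2 and 3, and 0.75, 0.65 and 0.82 in control clones 1, 2 and 3. Spearman rho ran from 0.37 to 0.57. For 7752 other genes averaging at least 20 CPM, r ran from 0.33 to 0.55. Between fold changes, r was 0.75 over the 73 members and 0.57 over the 71 without Rpl30 and Rpl37. These correlations run across genes that share libraries and, in part, neighbours, and the genes are not independent replicates. Removing neighbourhood medians did not remove the lean of the members: 71 of 74 fold changes were then negative (52.2% of all genes), with 4 members lower at unadjusted p under 0.05 by limma (5.52% of all genes) and a median of -0.136. With chromosome medians removed, 70 were negative (51.3% of all genes). In control clone 3 the median neighbourhood of the members deviated by -0.02, against 0.21 for the median member. No genomic DNA was measured, and whether copy number differed between clones was not tested.

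**Figure D5:**
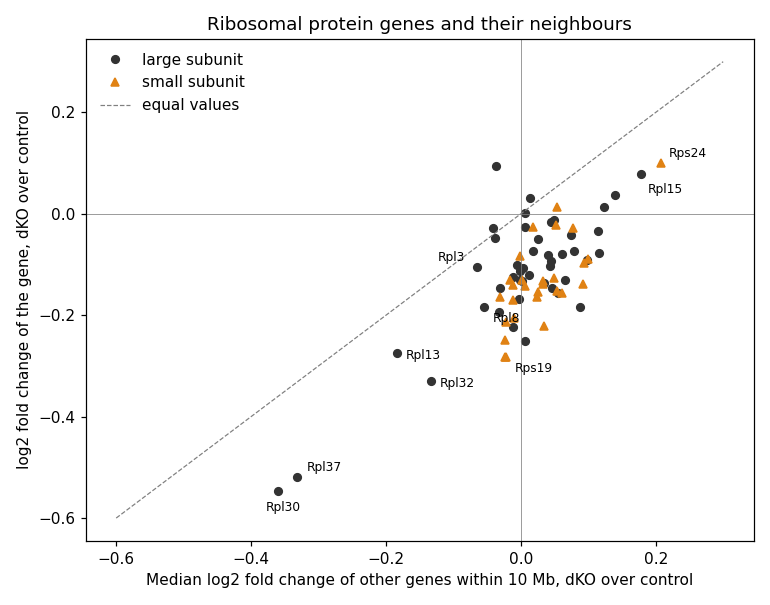
Log2 fold change (dKO over control) of each of 73 ribosomal protein genes (vertical axis) against the median log2 fold change of the other genes within 10 Mb (horizontal axis); circles are large and triangles small subunit genes, and the dashed line marks equal values. Rpl30 and Rpl37 are lowest on both axes, Rps24 and Rpl15 highest on the horizontal one, and most other genes lie below the line near a neighbour value of 0.

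The X-linked and stalk genes stayed close to the other members. Rps4x had 615, 590.2 and 620.3 CPM in dKO clones and 636, 601 and 708 CPM in control clones. Rpl10, whose protein joins the large subunit late, had 307, 292 and 318 CPM in dKO clones and 326, 316 and 375 CPM in control clones. Rpl36a had 111, 109.8 and 122 CPM in dKO clones and 107, 104 and 125 CPM in control clones. Their log2 fold changes were -0.09, -0.15 and 0.04, and the groups overlapped for each. Of the stalk genes, Rplp0 had 1266, 1031 and 1117 CPM in dKO clones and 1394, 1071 and 1083 CPM in control clones, with the highest value in control clone 1. Rplp1 had 789.6, 767 and 867 CPM in dKO clones and 839, 861 and 1006 CPM in control clones. Rplp2 had 252, 309 and 247 CPM in dKO clones and 282, 249 and 304 CPM in control clones. Their log2 fold changes were -0.05, -0.16 and -0.05, with groups that overlapped.

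Of the 7 paralog genes, Rpl22l1, Rpl7l1 and Rps27l were clearly present and Rpl3l, Rpl10l, Rpl39l and Rps4l nearly absent. Rpl22l1 had 83.1, 74.1 and 84.1 CPM in dKO clones and 103, 78.5 and 93.7 CPM in control clones (log2 fold change -0.18, SE 0.137). Its parent Rpl22 had 225, 258 and 233 CPM in dKO clones and 224, 234 and 272 CPM in control clones (log2 fold change -0.03, SE 0.131). Per length, the FPKM ratio of Rpl22l1 to Rpl22 was 1.39, 1.08 and 1.36 in dKO clones and 1.73, 1.26 and 1.29 in control clones, so the paralog was listed above its parent in every library. These ratios rest on listed transcript lengths of 543 bases for Rpl22l1 and 2042 bases for Rpl22. In CPM, which is not scaled to length, Rpl22 was the higher of the pair in every library. Rpl7l1 had 124, 129 and 133 CPM in dKO clones and 127, 108 and 128 CPM in control clones (log2 fold change 0.09, SE 0.123), and its FPKM was 0.0644 ± 0.00380 times that of Rpl7 in dKO clones and 0.0562 ± 0.00529 times in control clones (SD, n = 3 each). Rpl7 itself had 913, 882 and 869 CPM in dKO clones and 907, 911 and 1048 CPM in control clones. Rps27l, known as a target of p53, had 64.9, 58.8 and 59.97 CPM in dKO clones and 89.4, 56.4 and 71.9 CPM in control clones (log2 fold change -0.22, SE 0.165), highest in control clone 1. Rpl3l, a paralog of heart and skeletal muscle, had 18, 29 and 7 reads in dKO clones and 12, 43 and 22 in control clones. Rpl10l, a testis paralog, had 10, 10 and 0 reads in dKO clones and 1, 9 and 7 in control clones. Rpl39l had 12, 2 and 0 reads in dKO clones and 0, 8 and 6 in control clones. Rps4l had 6, 10 and 0 reads in dKO clones and 4, 3 and 4 in control clones. The sources used here do not say how reads shared by near-identical copies or pseudogenes were counted, and values of single members are uncertain to that extent. Of the genes named above for their level, Rps15a had 250.2, 267 and 266 CPM in dKO clones and 242, 259 and 296 CPM in control clones. Rps15 had 892, 809.8 and 815 CPM in dKO clones and 761, 964 and 1051 CPM in control clones, and both overlapped between groups.

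Members matched to RefSeq promoters are shown by the windows around 6 starts, from 60 bases before to 30 after the RefSeq start (GRCm38.p6). The 6 were picked from the members on chromosomes 14 and 15 and the low members on chromosomes 7 and 17 described above, and Rpl30, Rpl8 and Rpl3 are not shown. The RefSeq start lay 91 bases from the start of the listed transcript for Rpl28, 81 for Rpl15, 38 for Rps19 and 3 for Rps24. It was the same for Rpl37 and Rps28. Capitals mark the ETS-type motif CCGGAAG, searched on both strands, and the pyrimidine run CTTTCC, searched on the sense strand; the windows of Rps24 and Rps28 hold neither.
Rpl37, chr15:5116553-5116642, plus strand: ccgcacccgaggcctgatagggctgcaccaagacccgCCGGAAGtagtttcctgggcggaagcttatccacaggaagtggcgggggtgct
Rpl15, chr14:18270957-18271046, minus strand: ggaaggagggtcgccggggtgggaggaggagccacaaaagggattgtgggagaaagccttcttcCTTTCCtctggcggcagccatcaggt
Rps24, chr14:24490618-24490707, plus strand: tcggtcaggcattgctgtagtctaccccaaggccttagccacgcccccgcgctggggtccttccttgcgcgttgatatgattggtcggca
Rps19, chr7:24884616-24884705, plus strand: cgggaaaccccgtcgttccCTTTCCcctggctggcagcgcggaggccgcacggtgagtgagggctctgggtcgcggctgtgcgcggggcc
Rpl28, chr7:4792905-4792994, plus strand: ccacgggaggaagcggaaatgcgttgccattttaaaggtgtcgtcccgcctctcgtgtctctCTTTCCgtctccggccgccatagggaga
Rps28, chr17:33824533-33824622, minus strand: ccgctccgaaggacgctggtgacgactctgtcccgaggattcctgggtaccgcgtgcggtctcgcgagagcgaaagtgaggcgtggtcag
Of the 77 members, 57 matched a promoter of 300 bases, from 250 before to 50 after the start. CCGGAAG was present in 22 of them (38.6%) against 9.12% of 27025 promoters, and CTTTCC in 35.1% against 14% of all promoters. The GC box GGGCGG, searched on both strands, was present in 61.4% against 35.9%, and TATAAA on the sense strand in 8.77% against 8.88%. These matches are descriptions of letters in a window, not of binding.

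Members were also short genes that often hold small nucleolar RNA genes. In GENCODE M21, 27 of 77 (35.1%) contained at least 1, with 55 in all, against 1.96% of the table's transcripts, and the median genomic span was 2952 bases against 14897. The median log2 fold change was -0.13 for the 27 hosts and -0.13 for the 47 other tested members.

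Related lists were read beside these. Of 18 other genes with TOP mRNAs, 0 passed the adjusted threshold, and 2 were lower at unadjusted p under 0.05, against 3.84% of all genes. All 3 dKO clones were below all 3 control clones for 7 of the 18, and above them for 1 (background 10.8% in either direction). The 7 are 38.9%, against 5.67% of all genes and 21.6% of the ribosomal protein genes. Among the 7, Pabpc1, Eif3e, Eif3h and Eif4b lie on chromosome 15, and Eef1a1, Eef1b2 and Eif3k on other chromosomes. Fold changes were negative for 10 of the 18 and positive for 8, and the median was -0.06. The 2 genes at unadjusted p under 0.05 by limma were Pabpc1, the poly(A)-binding protein gene, and Eif3e, an initiation factor subunit gene. Pabpc1 had 151, 157 and 156 CPM in dKO clones and 354, 205 and 222 CPM in control clones. Eif3e had 137, 147 and 134 CPM in dKO clones and 161, 162 and 191 CPM in control clones. Both lie on chromosome 15, at chr15:36595661-36608973 and chr15:43250040-43282736, and their log2 fold changes were -0.71 (adjusted p 0.269 by limma) and -0.30 (adjusted p 0.706 by limma). Eef1a1 and Eef2, the most abundant of this list, had log2 fold changes of -0.18 and -0.22. Among 39 ribosome assembly genes, 0 were at unadjusted p under 0.05 by limma in either direction (6.24% of all genes), and the median was -0.02. The lowest p belonged to Polr1a, the largest RNA polymerase I subunit gene, at -0.27 and Nop2, a nucleolar methyltransferase gene, at -0.20, both on chromosome 6. Polr1a had 142, 134 and 108 CPM in dKO clones and 155, 148 and 158 CPM in control clones. Nop2 had 121, 122 and 92.7 CPM in dKO clones and 127, 120 and 136 CPM in control clones. Both were lowest in dKO clone 3, where the median gene of chromosome 6 deviated by -0.40. Ncl and Eif6, the most abundant ribosome assembly genes listed, were at 0.11 and -0.11.

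Of 19 genes of mTORC1 and TOP control, 1 was higher and 1 lower at unadjusted p under 0.05 by limma. Over all genes, 6.24% were under that threshold in either direction and 3.84% lower. In this list 0 passed the adjusted threshold. Rps6kb2, an S6 kinase gene, averaged 38.4 ± 2.93 CPM in dKO clones and 30.7 ± 3.11 CPM in control clones (log2 fold change 0.32, adjusted p 0.741 by limma). Myc, the transcription factor that drives ribosome synthesis and a chromosome 15 gene, averaged 66.9 ± 6.33 CPM in dKO clones and 84.4 ± 8.99 CPM in control clones (log2 fold change -0.33, adjusted p 0.682 by limma). Larp1 averaged 154 ± 18.9 CPM in dKO clones and 188 ± 16.8 CPM in control clones (log2 fold change -0.29, adjusted p 0.821 by limma). The 62 mitochondrial ribosomal protein genes had a median of 0.07, with 43 positive, 19 negative and 0 past the adjusted threshold. Over all genes tested, 50.2% were negative, or 44.7% of those averaging at least 20 CPM. The median deviation of the 62 genes was -0.03, -0.03 and 0.20 in dKO clones 1, 2 and 3. In control clones 1, 2 and 3 it was 0.01, -0.12 and 0.08. At unadjusted p under 0.05 by limma 1 was lower (3.84% of all genes), Mrpl52 on chromosome 14 (-0.46, adjusted p 0.554 by limma).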

How the data were processed

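Total RNA (262 ng) was depleted of ribosomal RNA and made into stranded, randomly primed libraries, per the labels' protocols. Tools named in the submitters' processing notes, without their roles, are HOMER 4.8, STAR 2.5.2a, edgeR and SAMtools, with the build GRCm38.p5. Read assignment and use of strand are not stated in those notes. The deposited read columns are a signal: the authors scaled each library to a common total, and dividing by the value of 1 read gave whole reads for 100% of values (within 0.01 scaled reads). The deposited FPKM columns and the authors' deposited table of log2 fold changes, p-values and false discovery rates were used as given. Because the read columns are not raw counts, genes were tested with limma-trend (R 4.3.3, limma 3.58.1) on log2 values of TMM-scaled reads (edgeR 4.0.16; pseudocount 1), fitting only group over all 6 libraries, after filterByExpr (minimum 10 reads, total 15), with Benjamini-Hochberg adjustment over 16683 genes at 0.05. Fold changes are on this scale and understate those of low genes. Intervals are 95%. The procedure was tested on simulated data. CPM come from recovered reads. Replicate libraries differed beyond sampling noise (chi-square per degree of freedom 17.9 to 62.4), and p-values weigh spread between clones, which may be technical in part.

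The members and lists were chosen with earlier results of these data known. Values per library are given by rule for the members with the highest and lowest 4 fold changes among those averaging at least 2 CPM (which leaves out Rpl3l), the lowest 4 p-values, the highest and lowest 3 FPKM, the paralogs with their parents, the members on chromosomes 6, 14 and 15 and X, and the stalk genes. From each list, the 2 genes with the lowest p and the 2 with the highest mean were eligible. Rps27, Rps6, Rpl39 and other members missing from the table were not analysed here, and values of some single members and related genes are not reported here.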

Additional observations from a re-analysis of the deposited data

How the results depend on the processing

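Precision is limited by 3 clones a group. Of the 24 named members with a fit, 13 kept the sign of their fold change in all 23 other settings. These settings include scaling to the members themselves, which moves all fold changes by the same amount. The 28 genes called over the whole table became 213 with DESeq2, 17 with library totals alone, 71 with a term for dKO clone 3 and control clone 1, 595 within the other 4 libraries, 50 with neighbourhood medians removed (a setting chosen after the data were seen) and 11 to 138 when 1 library was left out. Ribosomal protein genes called numbered 0 in the remaining settings, 2 with DESeq2 (adjusted p 0.0172 for Rpl37 and 0.0245 for Rpl30), 2 within the 4 libraries, and 0 to 1 with 1 library left out; the 1 was Rpl30 without control clone 1 (adjusted p 0.025 by limma, where Rpl37 had 0.0526). Over all settings the adjusted p ran from 0.00383 to 0.892 for Rpl37 and from 0.00139 to 0.887 for Rpl30. With 1 library left out, the large minus small difference in median log2 fold change, 0.0366 over all 6, ran from 0.0175 to 0.0606, the median of members from -0.163 to -0.0509, and the share difference from -0.479 to -0.0695. Scaled to the members themselves, also chosen after the data were seen, the median was near 0 by construction, at -0.00824. Deviations of same-numbered clones had r of -0.357, 0.639 and -0.339 for numbers 1, 2 and 3. The highest r, 0.663, was between dKO clone 3 and control clone 1, the libraries that stood apart. Other pairs with unlike numbers ran from -0.673 to 0.391. The numbers were therefore not taken to pair the clones. With the clone number as a block, 196 genes and 0 members were called.

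Small fold changes changed sign. With 1 library left out, log2 fold changes ran from -0.00444 to 0.251 for Rpl15, -0.000135 to 0.329 for Rps24, -0.0135 to 0.118 for Rpl36a, -0.0833 to 0.0565 for Rpl22, -0.0859 to 0.0583 for Rps15a, -0.129 to 0.0743 for Rplp0, -0.939 to 0.0943 for Rpl3l and -0.15 to 0.0511 for Rplp2. Within the 4 libraries Rpl36a was at -0.0259, Rplp0 at 0.104 and Rplp2 at 0.0412. With chromosome medians removed Rpl3 was at 0.026 and Rpl36a at -9.95e-06. With neighbourhood medians removed Rpl15 was at -0.1, Rpl36a at -0.0577, Rplp2 at 0.0107 and Rps24 at -0.0834. Scaling to the members moved every log2 fold change up by the same amount, so the sign changes there follow from the setting. Rpl22 was then at 0.0938, Rpl3 at 0.0161, Rpl7 at 0.018, Rplp0 at 0.0708, Rplp2 at 0.072, Rps15a at 0.0988 and Rps4x at 0.0319. The cause of the sign changes in the other settings was not tested.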

Other observations

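Some members stood out in 1 library together with their neighbours; these were chosen after their values were seen. Rpl23, Rpl19 and Rpl27, large subunit genes close together on chromosome 11, had log2 deviations from their means of -0.41, -0.35 and -0.42 in control clone 1, where their neighbourhoods were at -0.26, -0.26 and -0.27. Rps29 and Rps7, small subunit genes on chromosome 12, were at -0.41 and -0.27 in the same clone, with neighbourhoods at -0.18 and -0.18. Rps12, on chromosome 10, was at -0.39 there, with its neighbourhood at -0.13. Rpl13, on chromosome 8, had 438, 387 and 550.4 CPM in dKO clones 1, 2 and 3 and 599.99, 420.3 and 654 CPM in control clones 1, 2 and 3, and its neighbourhood was at -0.19, -0.22 and 0.16 in dKO clones and at 0.34, -0.17 and 0.15 in control clones. DNA copy number was not measured, and its part in these values was not tested.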
